A study of Mus musculus with 5 samples.

Results

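Of the 1122 mouse miRNAs on the array, 80 are best known from cells outside the myeloid lineage, and this report describes those 80 in dendritic cells. They were taken by name, with every arm the array carries, and fall into 7 lineages: muscle (15 miRNAs), neural (9), liver and islet (4), epithelial (20), stem cell (18), vessel and stroma (11) and erythroid (3). The cells were BMDCs, dendritic cells grown with rmGM-CSF and rmIL-4 from the marrow of C3H/HeJ mice, a strain that carries a mutated Tlr4, and purified on anti-CD11c magnetic beads. The 3 flagellin arrays held RNA of BMDCs given flagellin, the bacterial protein that TLR5 recognizes, at 100 ng/ml for 24 h, and the 2 medium arrays held RNA of BMDCs kept in medium alone for 24 h. The study asked which miRNAs flagellin changes in these cells. The labels do not say whether the arrays of a group came from separate mice or cultures, so the p-values measure the spread between these arrays, which may be technical.

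A miRNA is cut from a hairpin RNA and guides a silencing complex to mRNAs that pair with its seed, bases 2 to 8 of the mature strand. Many miRNAs are made at high levels in 1 or a few cell types, because their hairpins lie in transcripts that the transcription factors of those cells switch on. miR-206 marks skeletal muscle, miR-128 the brain, the miR-200 family epithelia, miR-126 endothelium, miR-451 red cell precursors, and the miR-290 and miR-302 clusters pluripotent cells. Dendritic cells are instead known for miR-223, miR-142, miR-21, miR-155 and miR-146a.

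The array called 12 of the 80 miRNAs detected on at least 1 array. Their mature sequences, where found by name in the RefSeq set used here (GRCm38.p6), are shown with the seed in capitals, since the seed decides which of them could share targets. That set held 63 of the 80, 5 of them only under a name with the letter a added (miR-126a-3p, miR-290a-5p, miR-290a-3p, miR-292a-5p and miR-451a). For all 63 every array probe lay within the mature sequence. A name missing from the set does not mean that RefSeq lacks the miRNA. Seeds were compared only among the 63, so a missing miRNA such as miR-302a-3p or miR-1a-3p could not be counted as sharing a seed.

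Among the stem cell miRNAs, miR-290-5p and miR-292-5p share their seed with miR-293-5p, which was not detected. miR-294-3p shares its seed with miR-295-3p, miR-302b-3p and miR-302d-3p, none of them detected, and miR-302c-5p with miR-302b-5p and miR-302d-5p, also not detected.
miR-290-5p: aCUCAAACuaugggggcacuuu
miR-292-5p: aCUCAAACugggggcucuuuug
miR-293-5p: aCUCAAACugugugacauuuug
miR-294-3p: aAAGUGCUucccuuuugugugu
miR-295-3p: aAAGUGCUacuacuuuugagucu
miR-302b-3p: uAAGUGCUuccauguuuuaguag
miR-302d-3p: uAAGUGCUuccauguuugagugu
miR-302c-5p: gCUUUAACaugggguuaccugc
miR-302b-5p: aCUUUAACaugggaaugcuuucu
miR-302d-5p: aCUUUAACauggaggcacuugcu

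In the epithelial list miR-200c-3p has the seed of miR-200b-3p and miR-429-3p, neither of them detected.
miR-200c-3p: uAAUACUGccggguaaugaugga
miR-200b-3p: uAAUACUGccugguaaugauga
miR-429-3p: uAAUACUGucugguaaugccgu

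The remaining detected miRNAs share their seed with no other of the 63. miR-206-3p belongs to the miR-1 family of heart and muscle, of which miR-1a-3p was not detected.
miR-206-3p: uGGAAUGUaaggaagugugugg
miR-128-3p: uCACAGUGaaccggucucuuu
miR-126-3p: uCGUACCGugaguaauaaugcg
miR-199a-3p: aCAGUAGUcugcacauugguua
miR-199a-5p: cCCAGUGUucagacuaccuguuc
miR-451: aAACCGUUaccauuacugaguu

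The twelfth detected miRNA is miR-199b-5p, for which no mature sequence was found. The last bases of its 22-nt probe would also pair with the miR-199a-5p seed. Some of the 12 share sequence or origin and are not separate measurements of a lineage. miR-199a-3p has the same sequence as miR-199b-3p, so its probes read both, and the probes of miR-199a-5p and miR-199b-5p share a stretch of 13 nt. RefSeq places miR-290-5p at chr7:3218639-3218660, miR-292-5p at chr7:3219200-3219221 and miR-294-3p at chr7:3220691-3220712, all on the plus strand. The last 2 lie within the spans of Nlrp12 and D7Ertd143e. miR-302c-5p lies at chr3:127545368-127545389 (plus strand), within the spans of Larp7 and Gm51018. miR-126-3p lies at chr2:26591402-26591423 (plus strand) inside Egfl7, and miR-206-3p at chr1:20679055-20679076 (plus strand) inside Lincmd1. miR-128-3p is made from 2 loci, at chr1:128202404-128202424 (plus strand, inside R3hdm1) and chr9:112118644-112118664 (minus strand, inside Arpp21). miR-199a-3p also has 2, at chr1:162217883-162217904 (plus strand, inside Dnm3 and Dnm3os) and chr9:21496498-21496519 (minus strand, inside Dnm2). miR-451 lies at chr11:78073186-78073207 (plus strand) and miR-200c-3p at chr6:124718324-124718346 (minus strand), neither inside another gene of the table, which gives the spans of genes and not their exons.

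Most of the lineage-restricted miRNAs were not detected in these BMDCs. A miRNA counts as detected on an array when at least 1 of its probes has a signal above 3 times its error, and its total gene signal is then the sum over the probes that pass. On all 5 arrays 7 of the 80 were detected (8.75%), against 24.7% of the 1122 mouse miRNAs. On at least 1 array 12 of the 80 were detected (15%), against 29.3% of all. On none were 68 of the 80 (85%). By array, 10, 11 and 7 of the 80 were detected with flagellin and 9 and 7 with medium, so the counts of the groups overlapped. The label under which the 80 were gathered, restriction to other lineages, thus did not mean a lack of signal for 7 of them, and the shares were not tested against each other.

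The lineages differed in how many of their miRNAs were seen. None of the 4 liver and islet miRNAs was detected on any array. Of the 15 muscle miRNAs only miR-206-3p was, and of the 9 neural miRNAs only miR-128-3p, both on all 5 arrays. Of the 20 epithelial miRNAs only miR-200c-3p was, on 2 arrays. The stem cell list had 4 of its 18 miRNAs on every array (22.2%), close to the 24.7% of all mouse miRNAs. Names were matched letter by letter, so miR-291a and miR-291b are not among the 18. Their arms were counted in a further list, given below, and were not detected on any array. The share of the stem cell list would be lower with them. The vessel and stroma list had 2, 4 and 1 of its 11 miRNAs with flagellin and 2 and 1 with medium. From the erythroid list miR-451 was detected on 2 flagellin arrays, and both arms of miR-144, which is made from the same transcript as miR-451, on none.

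**Figure D1:**
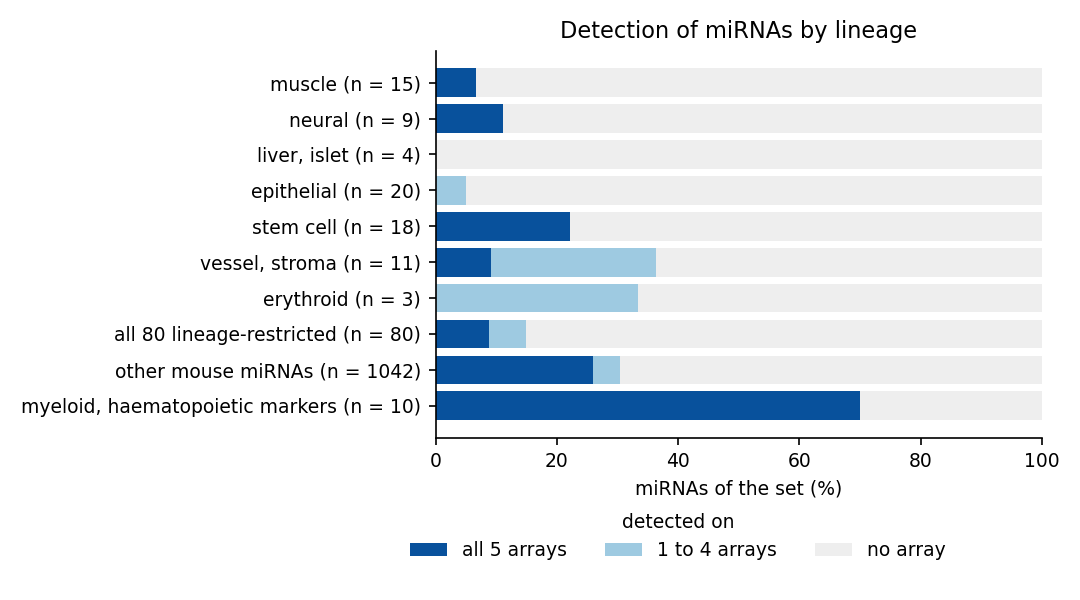
Each bar gives the percent of the miRNAs of a set that were detected on all 5 arrays, on 1 to 4 arrays or on no array, with the number of miRNAs in the set beside its name. The 80 lineage-restricted miRNAs reached 8.75% on all 5 arrays, the other 1042 mouse miRNAs 25.9% and the myeloid and haematopoietic markers 70%.

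Most arms of the myeloid and haematopoietic markers were detected. Of the 10 arms of miR-223, miR-142, miR-21, miR-155 and miR-146a, 7 were detected on all 5 arrays, and the 3 that were on none are miR-223-5p, miR-155-3p and miR-146a-3p. miR-223-3p, a miRNA of myeloid cells, had total gene signals of 3464, 3393 and 2499 with flagellin and 3118 and 2770 with medium. miR-150-5p, a miRNA of mature lymphocytes, was detected on no array. A further list of 37 arms from muscle, brain, gut, kidney, pancreas, epithelium, stem cells and stroma gave 3 detected on all 5 arrays and 34 on none. Those 3 were miR-192-5p and miR-194-5p, known from gut, liver and kidney, and miR-219-5p, known from oligodendrocytes.

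Base composition of the probes did not run along with detection in 1 direction. The mean GC content of the probes of a miRNA had a median of 48.7% for the 7 detected on all 5 arrays, 44.2% for the 5 detected on 1 to 4 arrays and 45.6% for the 68 detected on none. For the other mouse miRNAs the medians were 51.5%, 52.2% and 51.5%. By lineage the median was highest for the liver and islet list, at 53.2%, of which nothing was detected, and lowest for the erythroid list, at 30.8%. It was 43.3% for muscle, 45.4% for neural, 47.3% for epithelial, 50.2% for stem cell and 45.9% for vessel and stroma. The part of GC content in detection was not tested further.

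Among the undetected, the probe closest to the limit in each lineage was also read. miR-122-5p, the main miRNA of hepatocytes, had the brightest such probe of the liver and islet list, with a mean signal of 3.95, which is 2.40 times its error and at most 2.91 times on any array. In the stem cell list miR-290-3p came to 2.60 errors, with a signal of 2.15, and in the neural list miR-9-3p to 2.21 errors, with a signal of 3.66. miR-141-3p of the epithelial list came to 1.65 errors. The other 3 lists were lower, at 0.842 errors for miR-133b-3p of muscle, 0.457 for miR-143-3p of smooth muscle and fibroblasts (1.82 at most, on flagellin replicate 2), and -0.224 for miR-144-5p of red cell precursors. At these signals a low level cannot be told from none.

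miR-128-3p, a miRNA enriched in neurons, had total gene signals of 46.1, 42.4 and 30.1 after flagellin and 38.9 and 35.8 after medium alone. It had 9.79 to 11.3 times its error and was well clear of the detection limit on each array. The groups overlapped, and after scaling each array to its 75th percentile the log2 fold change of flagellin over medium was 0.08 (SE, the standard error, 0.096, adjusted p = 0.859 by limma with Benjamini-Hochberg adjustment over the 307 miRNAs tested, 95% interval -0.17 to 0.34). The 5p strands of its 2 hairpins, miR-128-1-5p and miR-128-2-5p, were not detected.

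miR-206-3p, which promotes differentiation of skeletal muscle, had total gene signals of 15.6, 19.1 and 14.8 after flagellin and 18.7 and 15.4 in medium. Its highest and its lowest array were both flagellin arrays. Its log2 fold change was -0.02 (SE 0.13, limma adjusted p = 0.983, 95% interval -0.36 to 0.31). No other muscle miRNA was detected, including miR-133b, whose hairpin lies in the same host transcript, Lincmd1.

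The 4 stem cell miRNAs were detected on every array in both groups. miR-290-5p had total gene signals of 26.7, 29.9 and 25.9 with flagellin and 30.3 and 29.1 with medium. miR-294-3p, one of the guide strands that promote the cell cycle of embryonic stem cells, had 20.05, 20.37 and 20.29 with flagellin and 23.8 and 21.8 with medium. Before scaling, each medium signal of miR-294-3p exceeded each flagellin signal, and after scaling its groups overlapped. miR-302c-5p gave 11.1, 8.69 and 8.59 after flagellin and 14.1 and 9.12 in medium, highest on medium replicate 1. miR-292-5p gave 4.21, 5.01 and 4.24 after flagellin and 4.35 and 4.09 in medium. In limma's test the log2 fold changes were -0.09 for miR-290-5p (standard error 0.14, adjusted p = 0.891), -0.14 for miR-294-3p (0.17, adjusted p = 0.878), -0.24 for miR-302c-5p (0.21, adjusted p = 0.859) and 0.11 for miR-292-5p (0.15, adjusted p = 0.885). The 95% interval was widest for miR-302c-5p, from -0.80 to 0.31, and its value moved to -0.0293 when medium replicate 1 was left out and to -0.484 when medium replicate 2 was. Without flagellin replicate 3 the value was -0.221 for miR-290-5p and -0.322 for miR-294-3p. Of the 10 arms of the miR-290 cluster among the 80 miRNAs, 3 were detected, and of the 8 arms of the miR-302 cluster 1 was. The 10 leave out the arms of miR-291a and miR-291b, which were not detected.

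**Figure D2:**
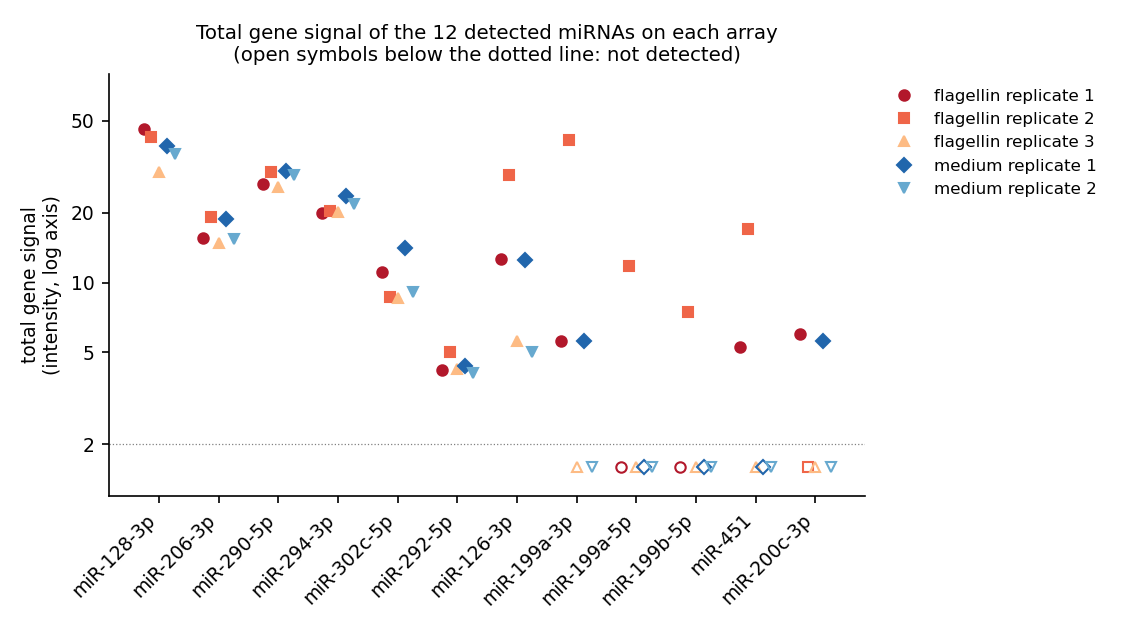
Total gene signal (intensity, log axis) of the 12 miRNAs detected on at least 1 array, with 1 symbol for each of the 5 arrays and open symbols for arrays on which the miRNA was not detected. The stem cell, muscle and neural miRNAs were detected on every array, and the 5 miRNAs from miR-126-3p to miR-451 were highest on flagellin replicate 2.

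For the 4 stem cell miRNAs the signal did not rise up to the longest probe. The array reads each miRNA with nested probes that start at the same base of its 3′ end and differ by 1 base or more at the other end, and a longer probe pairs with more of the miRNA. For miR-206-3p, miR-128-3p and miR-126-3p the longest probe was the brightest, as it was for the 5 miRNAs detected on 1 to 4 arrays. For each of the 4 stem cell miRNAs it was not. Over all 276 mouse miRNAs detected on all 5 arrays that have probes of different length, the longest was the brightest in 246 (89.1%). This comparison was made after the signals had been seen, is given as a description, and depends on the number of probes: the share was 93.1% for miRNAs with 2 probes and 74.5% for those with 4. A probe's signal and error also grow with the number of spots that carry it, and divided by that number the longest was again the brightest in 246 of the 276 and in none of the 4.

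miR-302c-5p showed it most plainly. Its 4 probes are given 5′ to 3′, with the base added to the next shorter probe in capitals and the shortest all in lower case.
miR-302c-5p, 11 nt: gcaggtaaccc
miR-302c-5p, 12 nt: gcaggtaacccC
miR-302c-5p, 13 nt: gcaggtaaccccA
miR-302c-5p, 14 nt: gcaggtaaccccaT

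The 11-nt probe had signals of 5.90, 4.91 and 4.87 with flagellin and 7.49 and 5.37 with medium, and the 12-nt probe 5.21, 3.78 and 3.72 with flagellin and 6.59 and 3.75 with medium. Both passed on all 5 arrays. The 13-nt and 14-nt probes, which hold the shorter ones whole, passed on none, with 1.14 to 2.29 errors. The detection of miR-302c-5p thus rested on the probes that pair with the fewest bases of it.

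The opposite was seen for miR-292-5p, where only the 14-nt probe passed.
miR-292-5p, 12 nt: caaaagagcccc
miR-292-5p, 13 nt: caaaagagccccC
miR-292-5p, 14 nt: caaaagagcccccA
miR-292-5p, 15 nt: caaaagagcccccaG

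The 14-nt probe stood at 4.60, 4.88 and 4.82 errors with flagellin and 5.10 and 4.57 with medium. Adding 1 base took the signal down again, to 1.77 to 2.88 errors at 15 nt. The 12-nt and 13-nt probes came to at most 0.738 errors on any array.

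The probes of miR-290-5p and miR-294-3p all passed on all 5 arrays. For miR-294-3p the mean signal was 8.06 at 19 nt, in 14 spots, and 6.32 at 21 nt, in 13 spots, which per spot is 0.576 and 0.486. For miR-290-5p the 14-nt probe was the brightest of 4. The longest stretch that a probe shares with a probe of another miRNA detected on all 5 arrays was 7 nt for miR-292-5p and miR-302c-5p and 8 nt for miR-290-5p and miR-294-3p, within the 5 to 10 nt of the 68 undetected miRNAs. Pairing of these probes with other RNAs was not tested.

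**Figure D3:**
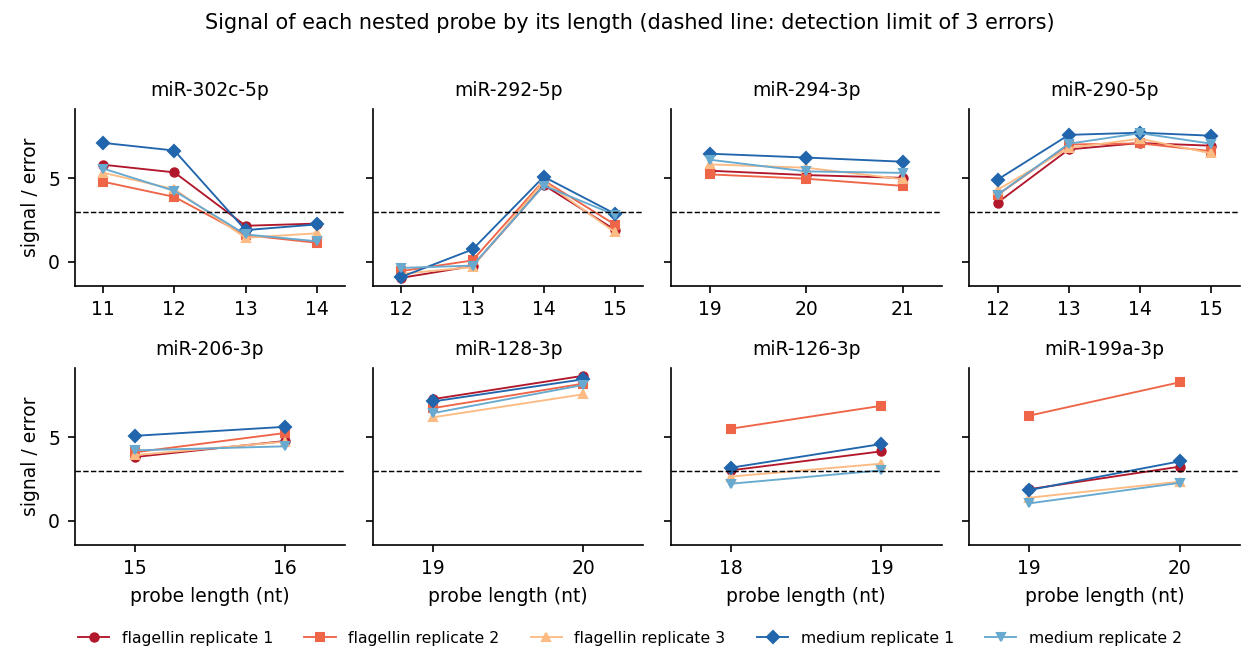
Signal divided by its error for each nested probe, against probe length in nt, with 1 line per array and a dashed line at the detection limit of 3 errors. In the upper row, the stem cell miRNAs, the longest probe is never the brightest on average, and in the lower row it is; flagellin replicate 2 stands above the other arrays for miR-126-3p and miR-199a-3p.

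The vessel, stroma and erythroid miRNAs varied more between arrays than between groups. miR-126-3p, the endothelial miRNA that supports VEGF signalling, had total gene signals of 12.6, 29.1 and 5.60 with flagellin and 12.5 and 5.04 with medium. miR-199a-3p, a miRNA of fibroblasts and smooth muscle, had 5.58 and 41.3 on flagellin replicates 1 and 2 and 5.59 on medium replicate 1, and was not detected on flagellin replicate 3 and medium replicate 2. miR-451, which Ago2 rather than Dicer matures, had 5.29 and 17.0 on flagellin replicates 1 and 2 and was not detected on the other 3 arrays. For each of these, flagellin replicate 2 was the highest array. miR-199a-5p, at 11.8, and miR-199b-5p, at 7.44, were detected on flagellin replicate 2 alone.

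Because a total gene signal leaves out probes below the limit, part of these gaps comes from probes that drop out. Both probes of miR-199a-3p entered the value of 41.3, and 1 of them the values of 5.58 and 5.59. The brightest probe of each of the 5 miRNAs was therefore read on all arrays, below the limit too. The 20-nt probe of miR-199a-3p had signals of 5.58, 26.7 and 3.71 after flagellin and 5.59 and 3.69 in medium. The 22-nt probe of miR-451 had 5.29, 10.6 and 2.80 with flagellin and 4.18 and 3.45 with medium, so that the undetected medium arrays came to 2.74 and 2.12 errors. The same array thus stood out at the level of single probes, with smaller gaps.

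On flagellin replicate 2, after scaling, the brightest probe was 4.87 times the median of the other 4 arrays for miR-199a-3p, 3.62 times for miR-199a-5p, 3.24 times for miR-199b-5p, 2.50 times for miR-451 and 2.20 times for miR-126-3p. Of the 298 mouse miRNAs detected on that array, 8 were more than 2 times the median of the others, and these 5 were among the 8. On the other arrays between 0 and 2 miRNAs were, none of them from the 80. The 6 other lineage-restricted miRNAs detected on flagellin replicate 2 lay at or below 1.11 times. Each of these counts took only miRNAs detected on the array in question. miR-199a-5p and miR-199b-5p, detected on flagellin replicate 2 alone, thus entered the 8 only through the array where they were high. The miR-199 strands also share sequence or origin, so the 5 are not separate measurements and the counts are a description, not a test. The 9 undetected vessel, stroma and erythroid miRNAs were read below the limit in the same way. The 16-nt probe of miR-143-3p had signals of 0.802, 3.31 and -0.0123 after flagellin and 0.209 and -0.256 in medium, highest on flagellin replicate 2 as well. The 13-nt probe of miR-214-3p, which is made from the Dnm3os transcript along with miR-199a and is named after its values were seen, had 1.14 on that array (0.638 errors) and was negative on the other 4. The other 7, both arms of miR-145 and miR-144 and the strands miR-126-5p, miR-143-5p and miR-214-5p, were highest on another array. In RNA of a whole culture more cells of a type and more RNA per cell cannot be told apart. The methods state that red blood cells were lysed before culture and that the cells were sorted on CD11c; the part of other cells in these signals was not tested.

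**Figure D4:**
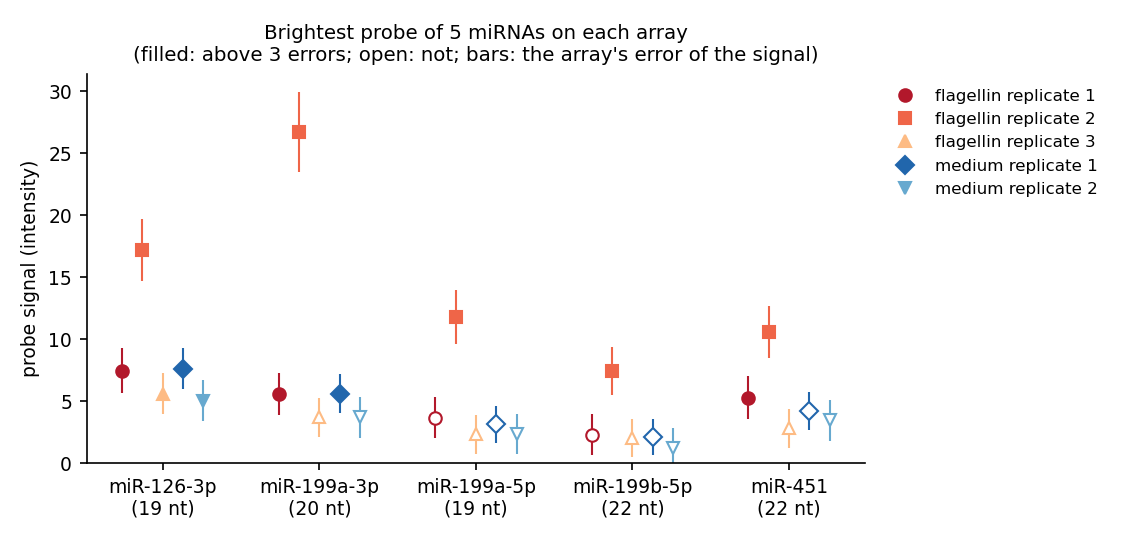
Signal (intensity) of the brightest probe of 5 vessel, stroma and erythroid miRNAs on each array, with bars for the error that the image software gives and filled symbols where the signal is above 3 errors. Flagellin replicate 2 is the highest array for all 5, from 7.44 for miR-199b-5p to 26.7 for miR-199a-3p.

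The groups did not differ by more than the spread between arrays. In limma's test miR-126-3p had a log2 fold change of 0.71 (SE 0.67, adjusted p = 0.859, 95% interval -1.07 to 2.48), miR-199a-3p of 1.06 (1.15, adjusted p = 0.859, -1.99 to 4.11) and miR-451 of 0.97 (0.71, adjusted p = 0.859, -0.90 to 2.84). Without flagellin replicate 2 the value was 0.18 for miR-126-3p and -0.00395 for miR-199a-3p, and miR-451 was no longer detected on 2 arrays. The value of miR-126-3p was also 0.12 without medium replicate 2 and 1.26 without medium replicate 1. With the row of the slide as a block the 3 values were 0.93, 1.42 and 1.15 (adjusted p = 0.881 for each in limma's test). Within row 2, which held flagellin replicate 2 and medium replicate 1, they were 1.16, 2.83 and 2.26, and within row 1, with the other 3 arrays, 0.76, 0.36 and 0.32. With probe signals in place of total gene signals they were 0.36, 0.52 and 0.11.

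For miRNAs undetected on both medium arrays only a rough ratio can be given, from the brightest probe. Flagellin arrays entered at that probe's signal, also where it was below the limit. Medium arrays entered at the higher of that signal and their lowest detected probe signal. On this scale miR-451, detected on 2 of 3 flagellin arrays, was 1.45-fold higher with flagellin over all 3 arrays. Its medium probe signals, 4.18 and 3.45, lay above the lowest detected signals of those arrays, 2.31 and 2.53. The value is thus a ratio of probe signals and not a bound, with flagellin replicate 3 at 2.80 (1.80 errors). miR-199a-5p was 1.69-fold and miR-199b-5p 1.38-fold higher, each detected on 1 of 3 flagellin arrays and therefore not tested. These miRNAs passed detection only through flagellin arrays, so that the direction is fixed by how they were chosen. Without flagellin replicate 2 the ratios were 1.10 for miR-451, 1.13 for miR-199a-5p and 0.977 for miR-199b-5p, so the ratios over all 3 arrays rest on that array.

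miR-200c-3p, which keeps epithelial cells from turning mesenchymal, was just over the limit on 1 array of each group, with total gene signals of 5.98 on flagellin replicate 1 and 5.60 on medium replicate 1, 3.45 and 3.56 errors. Its 16-nt probe came to 2.22 to 2.72 errors on the other 3 arrays. The log2 fold change was -0.09 (SE 0.36, limma adjusted p = 0.966).

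Of the 80 miRNAs, 10 were detected on at least 2 arrays and were tested, 7 of them on all 5. By limma, 0 of the 10 had an adjusted p under 0.05, and 0 an unadjusted p under 0.05 there or in the methods' t-test. Of all 307 miRNAs tested, 2 (0.651%) had an adjusted and 18 an unadjusted p under 0.05 by limma. For 0 of the 10 did the 3 flagellin values lie all above or all below both medium values, against 20.2% of the 307. The median log2 fold change was 0.03 over the 10 and 0.01 over the 307. Two-sided exact permutation tests over the 10 splits of the arrays, which cannot go below p = 0.1, gave between 0.4 and 1 for the 10 miRNAs. The number of arrays limits the precision, and the intervals of miR-126-3p, miR-199a-3p and miR-451 include changes of more than 2 on the log2 scale.

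**Figure D5:**
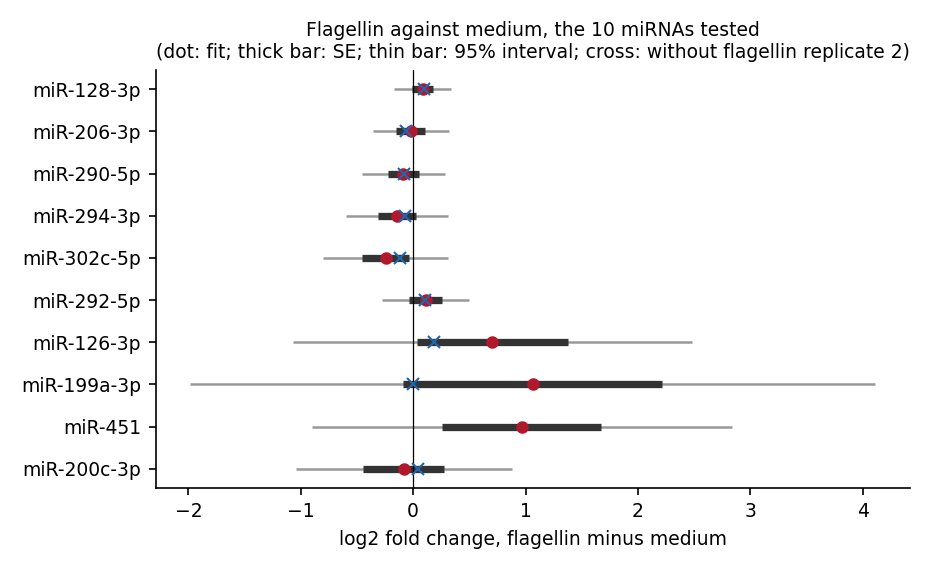
Log2 fold change of flagellin over medium for the 10 miRNAs tested, with dots for the fit on all 5 arrays, thick bars for 1 standard error, thin bars for the 95% interval and crosses for the fit without flagellin replicate 2. All 10 intervals include 0, and without that array miR-126-3p moves from 0.71 to 0.18 and miR-199a-3p from 1.06 to -0.00395, while miR-451 has no cross because it was then not tested.

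The 5 arrays shared 1 slide, with column 2 holding flagellin replicates 1 and 2, column 3 flagellin replicate 3 and column 4 the medium arrays, so that the column and the treatment cannot be told apart. The arrays correlated with each other at r of 0.991 to 0.997 over the 277 mouse miRNAs detected on all of them, and no 2 arrays held identical values. Flagellin replicate 3 correlated more with medium replicates 1 and 2 (r = 0.995 and 0.9965) than with flagellin replicates 1 and 2 (0.9925 and 0.9912). Flagellin replicates 1 and 2 correlated most with each other (0.9956). The cause was not tested.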

How the data were processed

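The authors hybridized Cy3-labelled total RNA to Agilent mouse miRNA arrays (Release 18.0) and deposited, per array, the intensities extracted with Feature Extraction 10.7, and a table of log2 values. The headers name the mm9 build, and no coordinate of the files was used. Most deposited intensities used here had already been corrected for background by the software. These were total gene signals with errors and detection calls, total probe signals with errors, and processed signals of spots. Only the alternative with normexp probe signals started from uncorrected mean spot signals and background medians, which limma then corrected. The deposited log2 values, which differ from log2 total gene signals by 1 constant on each array, served as an alternative. Deposited columns of another kind (call flags and positions) were used only as flags.

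Total gene signals were scaled to the 75th percentile of the array over the 277 miRNAs detected on all 5 arrays (211 to 293), raised to a floor of 0.0121 and transformed to log2. miRNAs detected on at least 2 arrays were tested in limma 3.58.1 under R 4.3.3 without covariates, with Benjamini-Hochberg adjustment. On simulated data with 60 of 307 miRNAs changed by 1.5 (log2), this test recovered 90.8%, with 4.14% of calls false. This share is an average over miRNAs drawn from all 307, and many more were changed than the 2 called here. It does not give the power for a single miRNA. The standard errors of miR-126-3p, miR-199a-3p and miR-451 were 0.67, 1.15 and 0.71. Other steps used Python 3.11.15, pandas 2.3.3 and scipy 1.17.1. Mouse miRNAs detected per array numbered 292 to 317, and the lowest detected signal was 2.31 to 3.21.

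The 80 miRNAs, the marker list and the further list were chosen with earlier results of these data known. Every miRNA of the 80 detected on at least 1 array is named with its values; of the undetected, 1 per lineage is given with values. Alternatives covered scaling, floor, filter, probe-level values, the authors' values, tests, blocks and single arrays left out.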

Additional observations from a re-analysis of the deposited data

How the results depend on the processing

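No miRNA of the 80 had an adjusted p under 0.05 in any setting. The lowest adjusted p was 0.224. The count of all mouse miRNAs with an adjusted p under 0.05, 2 in the report, was 4 with the floor divided by 10 and with the authors' values, 1 with detection required on all 5 arrays, with no filter, with limma's trend option and with array column as a random block (chosen after seeing the data), and 0 with quantile normalization, without scaling, with the percentile taken over the full set of mouse miRNAs, with processed or normexp probe signals and array row as a block. Leaving out single arrays gave 0 to 0. The number of the 80 whose groups did not overlap, 0 in the report, was 1 with no scaling (miR-294-3p), with the authors' values (miR-451) and with normexp probe signals (miR-126-3p), where 10.4%, 19.9% and 23.1% of all miRNAs tested did not overlap, and 0 to 4 with single arrays left out. Leaving out flagellin replicate 3 gave 4, where 51.1% of all miRNAs tested did not overlap, medium replicate 2 gave 2 (38.3% of all), and flagellin replicate 1 or medium replicate 1 gave 1 (25.7% and 30.4%). The count detected on all 5 arrays, 7, was 5 with a limit of 5 errors, and 5 with a probe well above background in over 50% of its spots, while the 277 of all mouse miRNAs became 236 and 239; both left out miR-126-3p and miR-292-5p. The cause was not tested.

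Small fold changes changed sign. With the percentile over the full set, which moved the median of the 307 to 0.19, the log2 fold changes were 0.103 for miR-200c-3p, 0.158 for miR-206-3p, 0.0933 for miR-290-5p and 0.0361 for miR-294-3p, all below that median. For miR-200c-3p the value was 0.182 with quantile normalization and 0.0101 with normexp probe signals, where miR-292-5p had -0.0141. With single arrays left out the values ran from -0.019 to 0.0981 for miR-128-3p, from -0.00395 to 1.78 for miR-199a-3p, from -0.126 to 0.0337 for miR-206-3p, from -0.0262 to 0.173 for miR-292-5p and from -0.466 to 0.0472 for miR-200c-3p. Values resting on undetected arrays moved most: miR-451 had 3.18 with the floor divided by 10 and 4.41 with the authors' values, against 0.97 in the report, and miR-200c-3p -0.639 and -0.903, against -0.09.

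With the replicate block, over the 2 numbers that both groups share, 0 of the 307 had an adjusted p under 0.05 (39 unadjusted, 2 of them from the 80, miR-294-3p and miR-302c-5p), and miR-200c-3p had a log2 fold change of 0.051. The deviations of same-numbered arrays from their group means correlated at r = -0.0429 and -0.076 over 277 miRNAs. With 2 pairs, and 2 medium arrays whose deviations mirror each other, this does not settle whether the numbers mark a shared culture or day. The number of arrays and signals close to the detection limit bound what these values can show.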

Other observations

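Of the 8 mouse miRNAs whose brightest probe was more than 2 times the median of the other arrays on flagellin replicate 2, the 3 from outside the 80 were miR-130a-3p, miR-3474 and miR-497-5p, which are named after their values were seen. By scaled total gene signals, other arrays also held miRNAs at least 1 log2 above the median of the rest. Of the 307 tested these were 0, 4 and 5 on flagellin replicates 1 to 3, and 10 and 2 on medium replicates 1 and 2. From the 80 there were 3 on flagellin replicate 2 and 0 on every other array. miR-126-3p also stood at -1.13 on medium replicate 2. The further list did not move with that array as a whole. miR-219-5p had total gene signals of 12.3, 17.3 and 5.22 with flagellin and 14.0 and 13.4 with medium, highest on flagellin replicate 2 and lowest on flagellin replicate 3. miR-192-5p had 39.7, 37.5 and 25.2 with flagellin and 31.3 and 27.9 with medium, and miR-194-5p 46.6, 44.8 and 28.5 with flagellin and 40.4 and 33.1 with medium. Neither was highest on flagellin replicate 2.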
